A study of Mus musculus with 9 samples.

Results

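The genes described here are 30 mouse genes of cholesterol and fatty acid synthesis, chosen by name: 18 enzymes of the sterol pathway, 8 enzymes that make, lengthen or desaturate fatty acids, and 4 regulators or carriers (Insig1, Srebf2, Srebf1 and Stard4). All 30 were among the 27998 genes of the deposited matrix, and the list does not hold every gene of either pathway. They were measured in 1 single-cell library (10x Genomics) of the cells that infiltrate ascites, a build-up of fluid around the abdominal organs, in mice labelled B6_WT. The title of that sample names ID8_def29_vegf, a mouse ovarian cancer line engineered to secrete the defensin Def29 and Vegf, a growth factor of blood vessels, and its labels give no treatment, no age and no number of mice. The series, whose title concerns iron chelation in metastatic ovarian cancer, also has bulk libraries of the line ID8-Def29/Vegf in culture, 4 with deferiprone for 12 h and 4 with vehicle, which are not used here because the names of their columns match no sample label. Everything below therefore describes a single condition.

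Cholesterol is built from acetyl-CoA through mevalonate and isoprenoid units to squalene, which is folded into lanosterol and then trimmed and reduced to cholesterol. Fatty acids are built from the same acetyl-CoA, which Acly supplies in the cytosol. The transcription factors SREBP-2 (gene Srebf2), mainly for sterol genes, and SREBP-1 (gene Srebf1), mainly for fatty acid genes, drive both programmes. When sterols are plentiful, Insig proteins hold the escort protein Scap and its bound SREBP in the endoplasmic reticulum, so that no active factor reaches the nucleus. Macrophages take up lipid by scavenger receptors and from engulfed cells, and export cholesterol through transporters switched on by the nuclear receptor LXR. Tumour cells are often found to make much of their own lipid.

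Cells were kept with at least 500 UMIs (unique molecular identifiers, a count of captured RNA molecules), at least 200 genes and at most 15% mitochondrial UMIs, which left 6442 barcodes. The 3660 tumour-like cells, 56.8% of them, had at least 3 UMIs over Krt8, Krt18, Krt19, Wt1 and Upk3b and at most 1 UMI over C1qa, C1qb and C1qc. The 1076 macrophage cells, 16.7%, had at least 3 UMIs over the C1q genes and at most 1 over the other set. The remaining 1706 cells belonged to neither class. The classes differed in depth, with a median of 5007 UMIs per tumour-like cell and 1639.5 per macrophage, and with 19994488 UMIs over all tumour-like cells and 1905866 over all macrophages.

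Markers that the rule did not use bore out the macrophage class: Csf1r, Adgre1 and Cd68 stood at 1.40, 0.2501 and 14.6 CPM (counts scaled to a fixed total of UMIs per class) in tumour-like cells, against 369, 71.4 and 697 CPM in macrophages. For the tumour-like class they were mixed. Krt7 stood at 24.0 CPM in tumour-like cells and 2.62 in macrophages, and Msln at 10.4 and 0.525, but the epithelial gene Epcam had 1.20 CPM in tumour-like cells and Cdh1 had 0. Wt1, Upk3b and Msln are also made by the mesothelium that lines the cavity, so tumour cells and mesothelial cells cannot be told apart by this rule, and "tumour-like" is used as its name only. Of the markers of other cells, natural killer genes (5) were at 0 in both classes. Summed genes of conventional dendritic cells 2 stood at 486 CPM in tumour-like cells and 7126 in macrophages, those of monocytes at 67.8 and 591, and those of fibroblasts at 377 and 29.4. Single genes made up most of several sums. In macrophages 1 gene gave 5218 of the 7126 CPM of dendritic cells 2, and 5 of the 6 fibroblast genes were at 0. In tumour-like cells 1 gene gave 59.5 of the 67.8 CPM of monocytes and 1 gave 359 of the 377 CPM of fibroblasts. These sums alone therefore do not show such cells in the classes, but the clusters described below place some there. A cluster of 53 cells led by Col1a2, Mgp and Meg3, with 5 of 6 fibroblast genes detected, held 37 tumour-like cells. A cluster led by H2-Oa, Napsa and H2-Ab1, with 5 of 7 genes of dendritic cells 2 detected, held 10 macrophages. The part of such cells in the ratios was not tested. The summed erythroid genes stood at 1670 CPM in tumour-like cells and 11657 in macrophages, and without the cluster led by haemoglobin genes the counts of genes given below were the same (12 and 4). Free RNA, estimated from 8 markers foreign to each class, made up 5.62% or 8.91% of tumour-like UMIs and 12.6% or 12.7% of macrophage UMIs, depending on whether the profile of barcodes with 1 to 50 or with 100 to 200 UMIs was used.

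Cells of 1 library are not replicates, so no test between classes was made and no p-value is given. Levels carry an exact Poisson 95% interval and ratios (tumour-like over macrophage) an exact conditional binomial 95% interval, both for counting error only. A gene was counted as higher or lower at a ratio of at least 2 or at most 0.5, given at least 50 UMIs over both classes. Of the 30 genes, 26 had enough UMIs. In tumour-like cells 12 of the 26 were higher (46.2%), against a background of 35.9% of 10385 genes, and 4 were lower (15.4%), against a background of 11.8%. The other 10 lay between. The median log2 ratio was 0.79 over the 26 genes and 0.57 over all genes (a ratio of 1.48), so these counts alone do not set the list apart from other genes. The genes differed in which end they stood at.

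**Figure D1:**
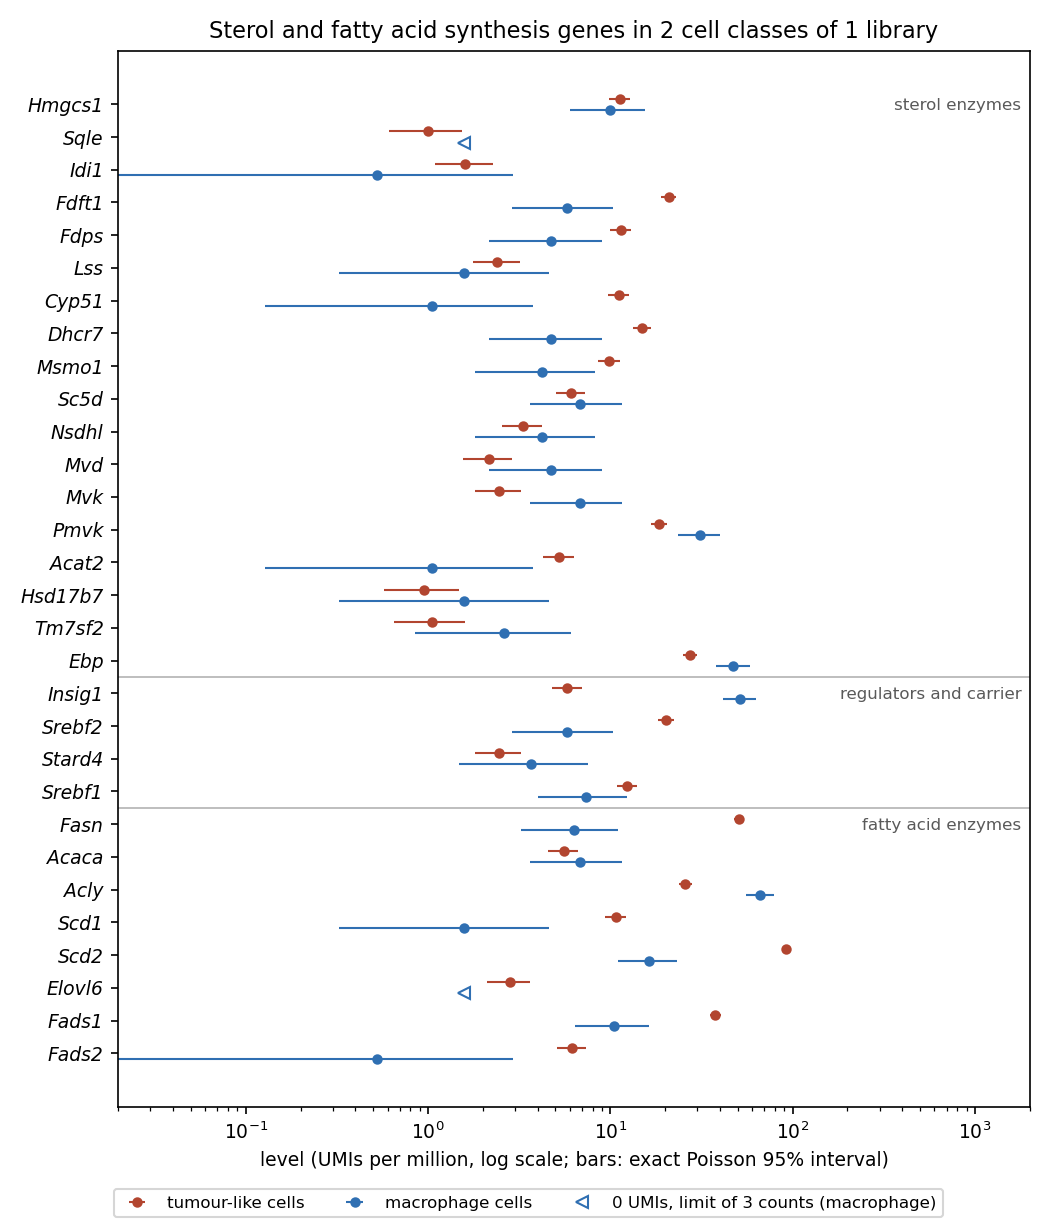
Level of each of the 30 genes in tumour-like cells (red) and macrophages (blue), in CPM on a log axis with exact Poisson 95% intervals, by role. Open triangles mark the limit of 3 counts used for 0 UMIs. Fasn, Scd2, Fads1 and Srebf2 lie to the right in tumour-like cells, and Insig1 and Acly in macrophages.

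Among the sterol enzymes, 14 of 18 had enough UMIs. In tumour-like cells 6 of the 14 were higher (42.9%, against 35.9% of all genes), 2 were lower (14.3%, against 11.8%) and 6 lay between. Their median log2 ratio of 0.40 was below the 0.57 of all genes, and the shares lay near those of all genes. The 18 enzymes together stood at 151.8 CPM (146.5 to 157.3) in tumour-like cells and 138.5 CPM (122 to 156) in macrophages. The ratio of 1.10 (0.966 to 1.248) had an interval that included 1, and read against the median ratio of all genes it was 0.739, which turns the direction.

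The 7 enzymes from acetyl-CoA to farnesyl diphosphate stood together at 52.8 CPM in tumour-like cells and 58.8 in macrophages, a ratio of 0.898 (0.738 to 1.10). Acat2, the thiolase that joins acetyl units, was at 5.25 CPM in tumour-like cells and 1.05 in macrophages, a ratio of 5.004 (1.35 to 41.9), from 105 and 2 UMIs. Free RNA would give 0.598 or 2.06 CPM in macrophages, so their Acat2 level cannot be told from free RNA. Hmgcs1, which makes HMG-CoA, was at 11.3 CPM (9.88 to 12.9) in tumour-like cells and 9.97 (6.002 to 15.6) in macrophages. Its ratio of 1.13 (0.709 to 1.92) lay below the median of all genes.

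The kinases and the decarboxylase of the mevalonate steps went the other way. Mvk, mevalonate kinase, was at 2.45 CPM in tumour-like cells and 6.82 in macrophages, a ratio of 0.359 (0.192 to 0.722). Pmvk, phosphomevalonate kinase, was at 18.6 CPM (16.8 to 20.6) in tumour-like cells and 31.0 (23.6 to 39.9) in macrophages, a ratio of 0.601 (0.456 to 0.805). Mvd, which removes the carboxyl group to give the isoprenoid unit, had a ratio of 0.455 (0.219 to 1.06), from 43 and 9 UMIs. Thus 3 consecutive steps had ratios below 1, with the interval of Mvd reaching past it. The isomerase Idi1 had 32 UMIs in tumour-like cells and 1 in macrophages, too few to count. Fdps, which joins the units to farnesyl diphosphate, was again higher in tumour-like cells, at 11.4 against 4.72 CPM, a ratio of 2.41 (1.2498 to 5.35).

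From squalene synthase onward the 11 enzymes stood together at 99.1 CPM in tumour-like cells and 79.8 in macrophages. Their ratio of 1.24 (1.05 to 1.47) is below the median of all genes. Fdft1, squalene synthase, was at 20.9 CPM (18.9 to 23.0) in tumour-like cells and 5.77 (2.88 to 10.3) in macrophages, a ratio of 3.62 (2.004 to 7.31). The gene for the next step, Sqle, had 20 UMIs in tumour-like cells and 0 in macrophages, and no fold is given. Its exact interval in macrophages reached 1.94 CPM, and the limit of 3 counts used here for 0 UMIs is 1.57 CPM. Lss, which folds the ring system, was at 2.40 and 1.57 CPM, a ratio of 1.53 (0.492 to 7.65).

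Cyp51, the demethylase of lanosterol, was at 11.2 CPM (9.74 to 12.7) in tumour-like cells and 1.05 (0.127 to 3.79) in macrophages. Its ratio of 10.6 (2.91 to 88.3) rested on 223 UMIs in tumour-like cells and 2 in macrophages. Free RNA would give 0.824 or 0.954 CPM in macrophages, so their Cyp51 level cannot be told from free RNA. Msmo1, the methylsterol oxidase that acts after it, was at 9.85 CPM in tumour-like cells and 4.20 in macrophages, a ratio of 2.35 (1.17 to 5.51). Dhcr7, the reductase of the last step, was at 14.9 CPM (13.3 to 16.7) in tumour-like cells and 4.72 (2.16 to 8.96) in macrophages, a ratio of 3.16 (1.64 to 6.97). Although counted as higher, Fdps, Msmo1 and Acat2 had intervals that reached below the 1.48 of all genes.

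Ebp, the isomerase that moves the unsaturated bond of the sterol nucleus, stood apart from these. It was at 27.5 CPM (25.2 to 29.9) in tumour-like cells and 47.2 (38.0 to 58.0) in macrophages, a ratio of 0.581 (0.465 to 0.735). After thinning every cell to 1500 UMIs, 4.45% of tumour-like cells and 6.69% of macrophages had an Ebp UMI, and without thinning 13.5% and 8.36% did. Without Ebp and Pmvk, a pair chosen after their values were seen, the other 16 enzymes had a summed ratio of 1.75 (1.45 to 2.13). Sc5d and Nsdhl, which act near Ebp, had ratios of 0.895 (0.504 to 1.73) and 0.786 (0.377 to 1.90). Hsd17b7 and Tm7sf2 had 22 and 26 UMIs over both classes, too few to count.

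The regulators divided. Srebf2 was at 20.2 CPM (18.3 to 22.3) in tumour-like cells and 5.77 (2.88 to 10.3) in macrophages, a ratio of 3.50 (1.94 to 7.07). Srebf1 was at 12.4 CPM (10.9 to 14.0) in tumour-like cells and 7.35 (4.02 to 12.3) in macrophages, and its ratio of 1.68 (0.983 to 3.12) had an interval that included 1. Insig1, itself a known target of SREBP, was the gene furthest toward macrophages. It was at 5.80 CPM (4.79 to 6.96) in tumour-like cells and 51.4 (41.7 to 62.7) in macrophages, a ratio of 0.113 (0.0855 to 0.149), from 116 and 98 UMIs. At 1500 UMIs per cell, 0.999% of tumour-like cells (0.697 to 1.39) and 6.84% of macrophages (5.02 to 9.08) had an Insig1 UMI, and without thinning 3.06% and 8.09% did. Stard4, which carries cholesterol between membranes, had 49 and 7 UMIs and a ratio of 0.667 (0.301 to 1.75).

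Insig2, the second gene of the Insig pair and part of a list of 10 genes of SREBP processing, lay at the other end. It was at 68.3 CPM in tumour-like cells and 13.1 in macrophages, a ratio of 5.21 (3.51 to 8.08), so that the Insig genes differed in opposite directions between the classes. Of that list, 4 of 10 genes were higher in tumour-like cells (against 35.9% of all genes) and 0 were lower (against 11.8%), and its median log2 ratio of 0.66 lay near the 0.57 of all genes. Scap was at 7.60 CPM in tumour-like cells and 3.67 in macrophages, and its ratio of 2.07 (0.980 to 5.24) had an interval that included 1. The protease Mbtps1 was at 21.01 CPM in tumour-like cells and 8.92 in macrophages, a ratio of 2.35 (1.45 to 4.08). Pgrmc1, a membrane protein that binds Scap and Insig1, had a ratio of 2.21 (1.52 to 3.36). The second protease, Mbtps2, had a ratio of 1.91 (0.944 to 4.49), and Erlin2 1.31 (0.798 to 2.28).

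The fatty acid enzymes differed more. Of 8, all with enough UMIs, 5 were higher in tumour-like cells (62.5%, against 35.9% of all genes), 1 was lower (12.5%, against 11.8%) and 2 lay between, and the median log2 ratio was 2.17 with Elovl6 taken at its lower bound. Together they stood at 231 CPM (225 to 238) in tumour-like cells and 108.6 (94.3 to 124) in macrophages, a ratio of 2.13 (1.85 to 2.46), or 1.43 read against the median of all genes. Without Acly the other 7 stood at 205 CPM in tumour-like cells and 42.0 in macrophages, a ratio of 4.89 (3.92 to 6.18). Without Scd2 the sum had a ratio of 1.51 (1.299 to 1.77).

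Acly, which splits citrate to give cytosolic acetyl-CoA for both pathways, was at 25.9 CPM (23.7 to 28.2) in tumour-like cells and 66.6 (55.6 to 79.3) in macrophages, a ratio of 0.388 (0.319 to 0.475). At 1500 UMIs per cell, 3.62% of tumour-like cells and 9.95% of macrophages had an Acly UMI, and without thinning 13.1% and 10.7% did. Acaca, which commits acetyl-CoA to fatty acids by making malonyl-CoA, was at 5.55 and 6.82 CPM, a ratio of 0.814 (0.457 to 1.58). Fasn, the synthase that builds palmitate from it, was at 51.0 CPM (47.9 to 54.2) in tumour-like cells and 6.30 (3.25 to 10.999) in macrophages, a ratio of 8.09 (4.61 to 15.7). Its 12 macrophage UMIs compare with a free RNA level of 2.88 or 3.09 CPM. At 1500 UMIs per cell, 7.71% of tumour-like cells and 0.933% of macrophages had a Fasn UMI, and without thinning 22.4% and 1.12% did. The enzymes that precede Fasn in the pathway thus did not share its direction.

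The desaturases, which put unsaturated bonds into fatty acids, were all higher in tumour-like cells, together at 146.04 CPM against 28.9 in macrophages, a ratio of 5.06 (3.88 to 6.73). Scd2, a stearoyl-CoA desaturase, was at 91.5 CPM (87.3 to 95.8) in tumour-like cells and 16.3 (11.1 to 23.1) in macrophages, a ratio of 5.62 (3.95 to 8.30), with a free RNA level of 7.60 or 10.3 CPM in macrophages. Its near copy Scd1 was at 10.7 CPM in tumour-like cells and 1.57 in macrophages, a ratio of 6.799 (2.30 to 33.2), from 214 and 3 UMIs. Free RNA would give 0.412 or 1.04 CPM in macrophages, so their Scd1 level cannot be told from free RNA. Both genes lie on chromosome 19 of GRCm38, Scd2 from 44293674 to 44306864 and Scd1 from 44394455 to 44407879. Reads shared between these near copies could have been split, so their separate values are less certain than their sum.

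Fads1 and Fads2, which desaturate polyunsaturated chains, also lie on chromosome 19, from 10182888 to 10196877 and from 10062765 to 10101746. Fads1 was at 37.7 CPM (35.1 to 40.5) in tumour-like cells and 10.5 (6.41 to 16.2) in macrophages, a ratio of 3.59 (2.31 to 5.92). Fads2 had 123 UMIs in tumour-like cells and 1 in macrophages, at 6.15 and 0.525 CPM, where free RNA would give 0.412 or 0.534 in macrophages. Elovl6, which lengthens palmitate, had 56 UMIs in tumour-like cells and 0 in macrophages. The lower end of its exact interval was 1.40. Against a limit of 3 counts over the macrophages its ratio, called here its lower bound, was 1.78. Elovl6 therefore was not counted among the higher genes.

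**Figure D2:**
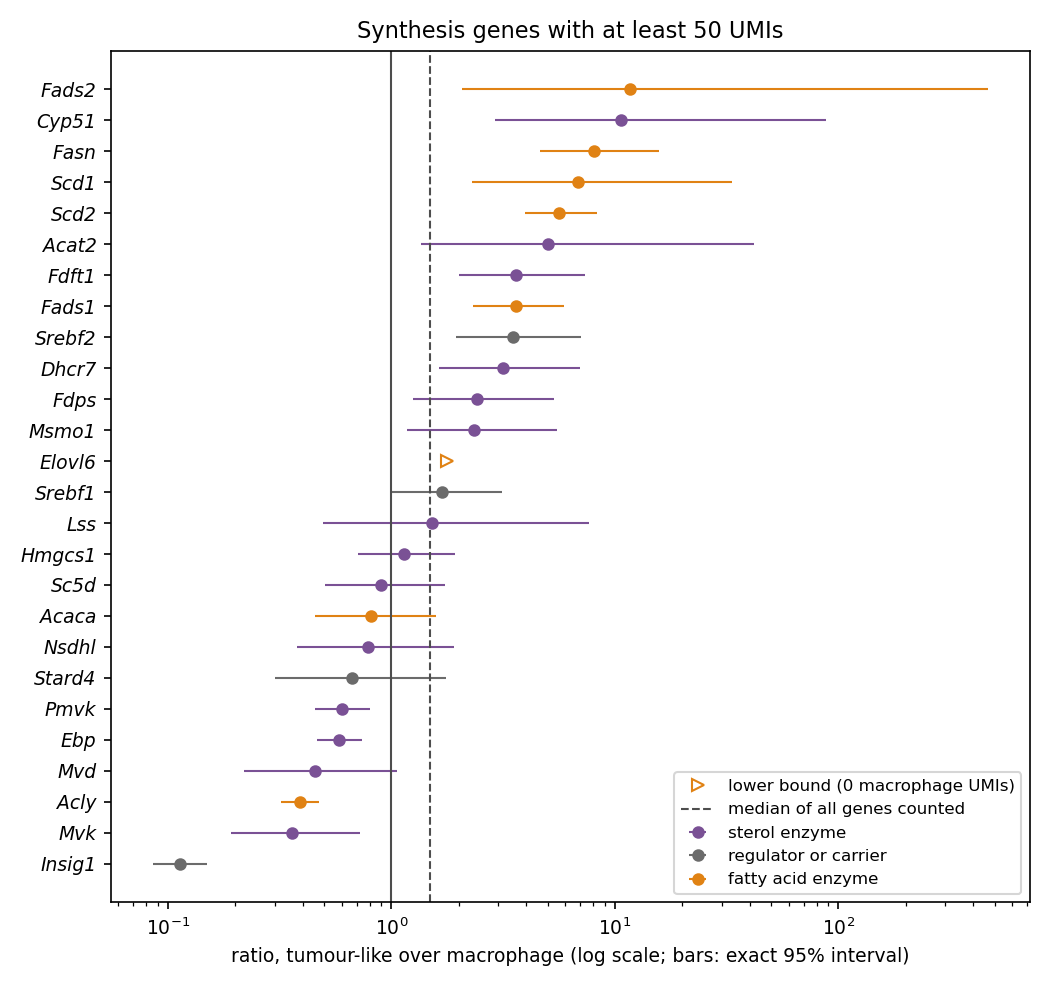
Ratio of levels, tumour-like over macrophage, for the 26 genes with at least 50 UMIs, on a log axis with exact 95% intervals, coloured by role; the solid line is 1 and the dashed line the median of 10385 genes, 1.48. Fatty acid enzymes other than Acly and Acaca lie to the right, and Insig1 at 0.113 lies furthest to the left.

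The count threshold of 50 UMIs lay close to several genes: just inside it were Lss with 51, Mvd with 52, Stard4 and Elovl6 with 56, Mvk with 62 and Nsdhl with 74, and just outside it Idi1 with 33 and Tm7sf2 with 26. In GENCODE release 21, the exons of 4 of the 30 genes overlapped another gene on the same strand, Fdps among them, and those of 7 overlapped a gene on the other strand, among them Fdft1 (with Ctsb), Cyp51 (with Akap9) and Srebf1 (with Rai1). The strand setting of the authors' counting is not given in the sources used here, so reads of such neighbours cannot be told apart. UMIs of these genes were sparse: 81.9% of tumour-like cells and 41.4% of macrophages had any UMI of the 30 genes, with a mean of 2.32 and 0.559 UMIs per cell. Thinned to 1500 UMIs, which left out 156 tumour-like cells and 433 macrophages, the shares were 47.4% and 39.0%. A sterol enzyme UMI was then present in 21.3% of tumour-like cells and 18.5% of macrophages, and a fatty acid enzyme UMI in 29.3% and 15.9%.

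The promoters of 23 of the 30 genes were found in a RefSeq table (GRCm38.p6; 250 bases before to 50 after a start; 28 windows). SREBP factors are known to act with NF-Y, which binds the CCAAT box. CCAAT on either strand was present in 20 of the 28 windows (71.4%), against 37.4% of 32851 windows of the same length. The sterol regulatory element form TCACNCCAC, where N is any base, was present on either strand in 1 window (3.57%), that of Hmgcs1, against 1.24% of all windows. Other spellings of the element were tried while it was chosen and are not reported, and matches are a description of these windows, not binding sites. The 4 windows below are shown because their genes span the range of ratios: Fasn (minus strand) and Cyp51 (minus strand) far toward tumour-like cells, Hmgcs1 (plus strand) near 1 and Insig1 (plus strand) far toward macrophages. Capitals mark CCAAT, its reverse complement ATTGG and the sterol element.
Fasn, chr11:120824498-120824797: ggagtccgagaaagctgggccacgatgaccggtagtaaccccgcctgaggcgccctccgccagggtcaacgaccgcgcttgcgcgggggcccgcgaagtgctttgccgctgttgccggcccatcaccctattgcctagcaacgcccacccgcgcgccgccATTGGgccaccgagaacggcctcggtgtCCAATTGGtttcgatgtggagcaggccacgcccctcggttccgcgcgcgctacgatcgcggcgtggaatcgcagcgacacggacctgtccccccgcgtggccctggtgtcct
Cyp51, chr5:4104648-4104947: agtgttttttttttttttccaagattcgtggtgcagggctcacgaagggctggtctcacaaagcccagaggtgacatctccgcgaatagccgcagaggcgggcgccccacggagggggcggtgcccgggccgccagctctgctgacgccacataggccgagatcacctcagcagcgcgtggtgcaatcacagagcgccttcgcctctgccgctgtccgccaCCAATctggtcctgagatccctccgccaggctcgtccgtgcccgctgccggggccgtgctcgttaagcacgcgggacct
Hmgcs1, chr13:119690101-119690400: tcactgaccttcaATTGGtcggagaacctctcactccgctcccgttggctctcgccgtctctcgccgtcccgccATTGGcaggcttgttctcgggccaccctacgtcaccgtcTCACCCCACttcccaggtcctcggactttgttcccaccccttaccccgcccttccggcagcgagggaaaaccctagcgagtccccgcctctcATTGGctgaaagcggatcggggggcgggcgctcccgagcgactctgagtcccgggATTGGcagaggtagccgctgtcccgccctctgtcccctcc
Insig1, chr5:28071162-28071461: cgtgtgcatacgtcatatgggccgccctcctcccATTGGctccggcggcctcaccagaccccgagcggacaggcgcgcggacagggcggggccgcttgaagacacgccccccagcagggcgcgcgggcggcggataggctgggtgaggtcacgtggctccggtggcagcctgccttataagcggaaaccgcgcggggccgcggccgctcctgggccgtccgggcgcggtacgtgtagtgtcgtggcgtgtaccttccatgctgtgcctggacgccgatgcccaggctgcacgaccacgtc
The window of Hmgcs1 held 4 CCAAT matches, none of which overlapped the sterol element. That of Fasn held 3, of which a pair overlap on opposite strands, and those of Cyp51 and Insig1 held 1 each. The genes toward tumour-like cells and the gene toward macrophages both had the box, so its presence in these windows did not separate them.

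Genes of neighbouring lipid pathways were taken from 7 lists, of which up to 6 genes each are named by the size of their log2 ratio. Their counts are to be read against 35.9% of all genes higher, 11.8% lower and a median log2 ratio of 0.57. Genes of lipid uptake, storage and export lay mostly toward macrophages. Of 9 uptake genes, 5 were lower in tumour-like cells and 1 was higher (median log2 ratio -1.04). The scavenger receptors Cd36 and Msr1 were at 1.0003 and 0.3001 CPM in tumour-like cells, against a free RNA level of 0.888 and 0.603 CPM there, and at 243 and 126 CPM in macrophages. The fatty acid binding protein Fabp5 was at 6.15 CPM in tumour-like cells and 347 in macrophages, and Fabp4 at 1.55 and 27.8, with free RNA levels of 4.18 and 0.581 CPM in tumour-like cells. The uptake receptor Lrp1 had a ratio of 0.485 (0.424 to 0.557). Scarb1, a receptor for high-density lipoprotein, was the gene of this list on the other side, at 35.4 CPM in tumour-like cells and 13.6 in macrophages, a ratio of 2.60 (1.76 to 4.001).

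Of the 7 counted genes of cholesterol efflux and LXR, 4 were lower in tumour-like cells and 1 was higher (median log2 ratio -1.04). The exporter Abca1 was at 4.75 CPM in tumour-like cells and 53.0 in macrophages, a ratio of 0.0897 (0.0670 to 0.120), and Abcg1 at 0.2501 and 24.7 CPM, from 5 and 47 UMIs. The LXR gene Nr1h3 had a ratio of 0.485 (0.252 to 1.03), its partner Rxra 0.134 (0.0898 to 0.202) and Lpcat3, a phospholipid remodelling enzyme, 1.41 (1.02 to 2.01). The bile acid receptor gene Nr1h4 had 64 UMIs in tumour-like cells and 0 in macrophages. Its ratio was 2.03 against a limit of 3 counts over the macrophages, but the lower end of its exact interval was 1.61. Nr1h4 is the 1 gene counted as higher in this list, so that count rests on the limit.

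Of 9 counted genes of storage, esters and the lysosome, 4 were lower in tumour-like cells and 2 were higher (median log2 ratio -0.90). The lysosomal lipase Lipa had a ratio of 0.0300 (0.0234 to 0.0381), at 4.55 CPM in tumour-like cells and 152 in macrophages. Npc1 and Npc2, which move cholesterol out of the lysosome, had ratios of 0.345 (0.260 to 0.464) and 0.287 (0.271 to 0.303), and the lipid droplet coat gene Plin2 0.246 (0.227 to 0.267). Its relative Plin3 and the cholesterol esterifying enzyme Soat1 were higher in tumour-like cells, at ratios of 2.21 (1.65 to 3.01) and 2.003 (1.72 to 2.35).

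Of 14 counted genes of acetyl-CoA and NADPH supply, activation and elongation, 6 were higher and 2 lower in tumour-like cells, near the shares of all genes (median log2 ratio 0.38, below that of all genes). Me1, which makes NADPH from malate, was at 124 CPM in tumour-like cells and 14.2 in macrophages. Free RNA would give 13.6 CPM in macrophages, so their Me1 level cannot be told from free RNA. Pgd, which makes NADPH in the pentose phosphate pathway, was at 40.3 CPM in tumour-like cells and 142 in macrophages, a ratio of 0.285 (0.248 to 0.328). The fatty acid activating enzyme Acsl4 had a ratio of 6.28 (4.41 to 9.27) and Acsl3 one of 7.63 (1.33 to 305) with 1 UMI in macrophages. Hacd3, of the elongation cycle, had a ratio of 4.69 (3.05 to 7.61), and Acss2, which makes acetyl-CoA from acetate, 5.43 (1.47 to 45.4) with 2 UMIs in macrophages. Acsl3 and Acss2 were at 0.525 and 1.05 CPM in macrophages, where free RNA would give 0.404 and 0.518. Their macrophage levels cannot be told from free RNA.

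Of 10 genes of fatty acid oxidation, 5 were higher in tumour-like cells (against 35.9% of all genes) and 0 were lower (against 11.8%), with a median log2 ratio of 1.01. Hadhb and Hadha, subunits of the mitochondrial trifunctional protein, had ratios of 4.73 (3.16 to 7.41) and 2.24 (1.76 to 2.91). Cpt2 and Acaa2 had ratios of 3.05 (1.52 to 7.14) and 2.30 (1.88 to 2.83), and Etfdh 1.82 (1.12 to 3.16). Of 5 counted genes of the prenylation and ubiquinone branch, which leaves the sterol pathway at farnesyl diphosphate, 1 was higher and 0 were lower (median log2 ratio 0.69). Pdss2 had a ratio of 2.43 (0.639 to 20.6), Coq2 1.76 (1.10 to 3.01), Fnta 1.61 (1.16 to 2.30), Dhdds 1.37 (0.851 to 2.35) and Ggps1 1.03 (0.627 to 1.81).

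**Figure D3:**
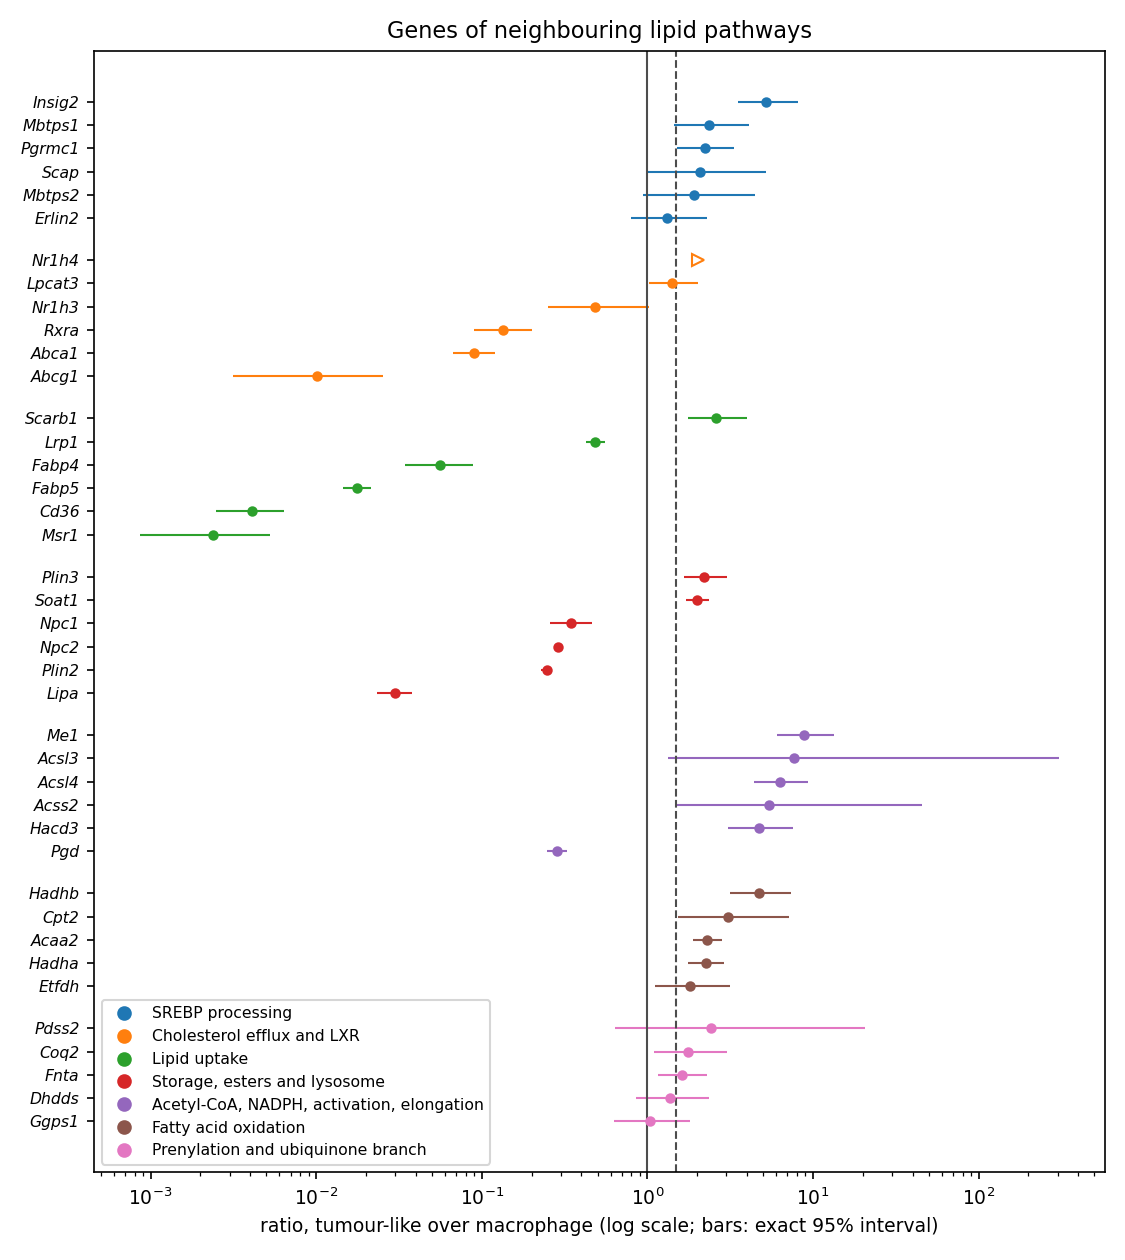
Ratio of levels, tumour-like over macrophage, for the named genes of 7 neighbouring lists, on a log axis with exact 95% intervals; the solid line is 1 and the dashed line the median of all genes, 1.48, and the open triangle is the lower bound of Nr1h4. Uptake, efflux and lysosomal genes reach far to the left, to 0.00238 for Msr1, and oxidation genes lie to the right.

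The genes also varied among tumour-like cells. Cells were clustered without the 30 genes and without the lists, which gave 16 clusters, called here by their 3 leading genes, and 6 clusters with at least 200 cells were mostly of tumour-like cells. Their summed fatty acid level was highest at 317 CPM (301 to 334) in 753 cells of the cluster led by Actr3b, Defb19 and Gm26532, and lowest at 184 CPM (172 to 196) in 844 cells of the cluster led by Tm4sf5, Car4 and Abcb1b. The ratio of the highest to the lowest was 1.72 (1.58 to 1.87) for the fatty acid sum, and the median depth of these 2 clusters was alike, at 5529 and 5506.5 UMIs. The sterol sum was also highest in the cluster led by Actr3b, at 179 CPM, but lowest in the cluster led by Pam, Spry2 and Pdpn, at 136 CPM, a ratio of 1.32 (1.17 to 1.48). The median depth of that lowest cluster was 4589.5 UMIs. Each pair of clusters was picked as highest and lowest from the same sums, so its ratio exceeds 1 by construction. The intervals of these ratios do not allow for that choice.

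In the cluster led by Actr3b, Fasn stood at 84.5 CPM, against 41.7 in the other tumour-like cells, a ratio of 2.03 (1.78 to 2.31). Scd2 stood at 135 against 79.9 CPM, Ebp at 43.5 against 22.7 and Acaca at 8.06 against 4.91, ratios of 1.69 (1.53 to 1.87), 1.92 (1.60 to 2.30) and 1.64 (1.07 to 2.48). These were the 4 of 22 counted genes (18.2%) with a ratio of 1.5 or more, against 10% of 9915 genes. Srebf1 had a ratio of 1.48 (1.11 to 1.96) and Fdps one of 1.49 (1.11 to 1.997), while Insig1 stood at 3.68 against 6.33 CPM, a ratio of 0.582 (0.320 to 0.993).

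The cluster led by Abhd2, Pam and Ttyh2 (435 cells) came next, with a fatty acid sum of 276 CPM and a sterol sum of 171. Insig1 stood there at 14.7 CPM, against 4.61 in the other tumour-like cells, a ratio of 3.18 (2.06 to 4.83). With Ebp at 1.56 (1.23 to 1.96) and Fasn at 1.501 (1.26 to 1.78), 3 of 22 genes (13.6%) had a ratio of 1.5 or more, against 7.97% of 9915 genes. Insig1 and Fasn did not keep step between clusters. In the cluster led by Pam, Spry2 and Pdpn (628 cells) Insig1 had a ratio of 2.79 (1.85 to 4.16), with Fasn at 0.741 (0.611 to 0.894), Scd2 at 0.712 (0.616 to 0.820), Fdps at 0.611 (0.382 to 0.935) and Hmgcs1 at 0.574 (0.352 to 0.894).

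Insig1 was lower in the cluster led by Tm4sf5, at a ratio of 0.278 (0.130 to 0.532), where Fasn stood at 29.7 against 58.4 CPM and Srebf2 at 24.0 against 18.8. It was also lower in the 551 cells led by Emx2, Aox3 and Igfbp4, at 1.2497 against 6.37 CPM, from 3 and 111 UMIs. Over the 6 clusters Insig1 therefore spanned 1.2497 to 14.7 CPM, and Fasn 29.7 to 84.5 CPM. Within every one of the 6 clusters Insig1 lay below its level in either macrophage cluster.

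**Figure D4:**
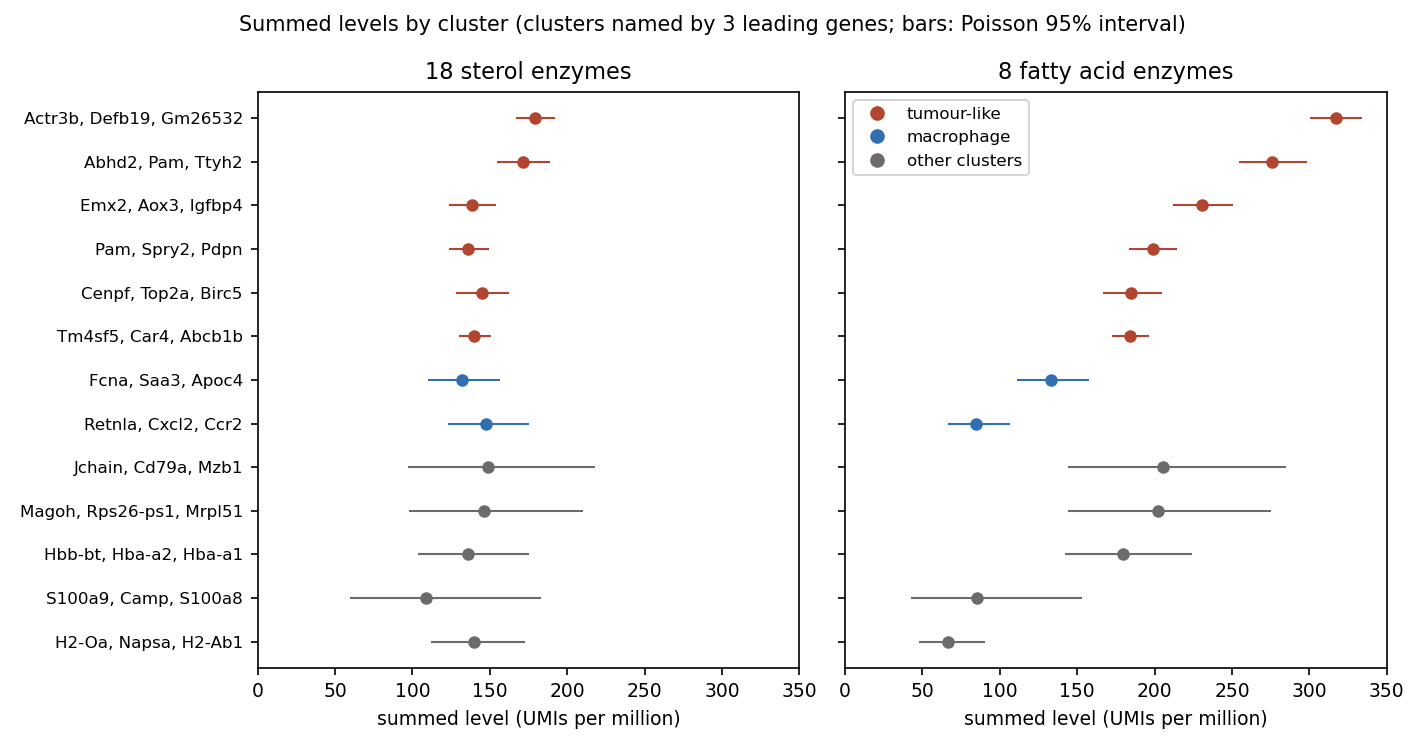
Summed level of the 18 sterol enzymes (left) and the 8 fatty acid enzymes (right) in 13 clusters, in CPM with exact Poisson 95% intervals; clusters run down the page as tumour-like (red), macrophage (blue) and other (grey). The fatty acid sums of the tumour-like clusters lie between 184 and 317, and the sterol sums of the 13 clusters span 109 to 179.

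Macrophages fell mainly into 2 clusters. The sterol sum was 132 CPM (110.4 to 157) in 438 cells led by Fcna, Saa3 and Apoc4 and 148 CPM (123 to 176) in 605 cells led by Retnla, Cxcl2 and Ccr2. The fatty acid sum was 133 CPM (111 to 158) and 84.8 CPM (66.5 to 106.7) in these clusters. Acly stood at 88.4 CPM in the cluster led by Fcna and 45.3 in the cluster led by Retnla, a ratio of 1.95 (1.32 to 2.92). Insig1 stood at 58.9 and 45.3 CPM, a ratio of 1.3004 (0.852 to 2.004), and Ebp at 40.6 and 52.3 CPM, a ratio of 0.777 (0.495 to 1.22). Insig1 UMIs were in 50 cells of the cluster led by Fcna and 36 cells of the cluster led by Retnla, so its macrophage level came from both.

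**Figure D5:**
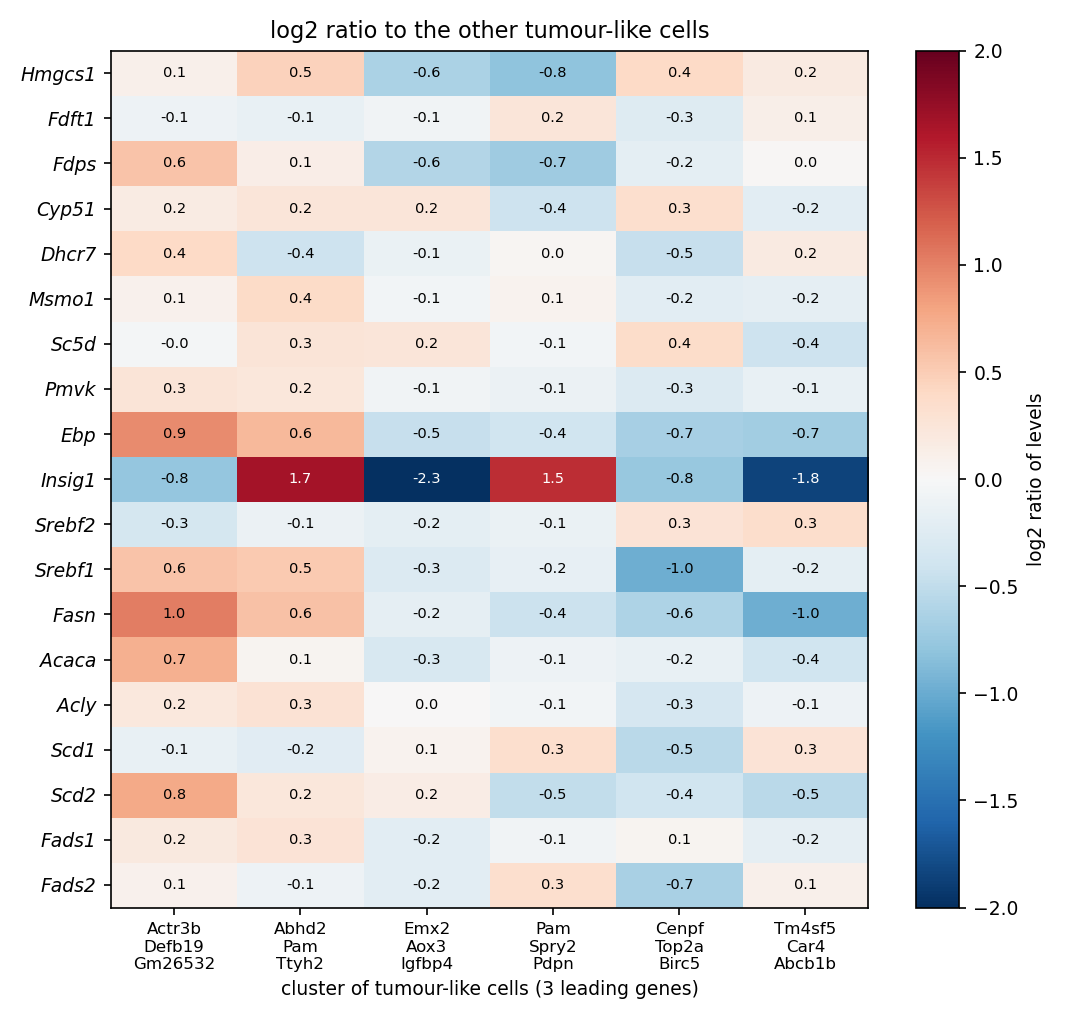
Heat map of the log2 ratio of each gene's level in a tumour-like cluster to its level in the other tumour-like cells, for 19 genes with at least 100 UMIs and 6 clusters; red is higher, blue lower, and the colour scale ends at 2 in either direction. Insig1 has the widest range, and Fasn, Scd2 and Ebp are red in the cluster led by Actr3b.

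Proliferation and depth were examined within the tumour-like class. The 220 cycling cells had at least 3 UMIs over 8 cell cycle genes. Their sterol sum was 144 CPM (127 to 163), against 153 CPM (147 to 158) in the other 3440 cells, a ratio of 0.944 (0.827 to 1.07). Their fatty acid sum was 187 CPM (168 to 209) against 235 CPM (228 to 243), a ratio of 0.795 (0.709 to 0.889). Fasn stood at 31.2 CPM in cycling cells and 52.9 in the others, a ratio of 0.590 (0.441 to 0.775), and Scd2 at 74.3 and 93.1 CPM, a ratio of 0.798 (0.663 to 0.954). Dhcr7, Srebf1 and Ebp had ratios of 0.548 (0.303 to 0.920), 0.528 (0.269 to 0.940) and 0.704 (0.485 to 0.992), while the median over 9943 genes was 0.970. No gene of the 30 had an interval wholly above 1 in cycling cells so defined. In the 272 tumour-like cells of the cluster led by the cell cycle genes Cenpf, Top2a and Birc5, Sqle had a ratio to the other tumour-like cells of 4.89 (1.65 to 13.2), from 7 and 13 UMIs. Stard4 had one of 3.37 (1.64 to 6.53) there, from 13 and 35 UMIs, while Fasn had one of 0.654 (0.503 to 0.837). Sqle and Stard4 are named because their intervals lay above 1, and neither is among the 22 genes counted by cluster. Of those 22, 0 had a ratio of 1.5 or more there, against 9.77% of 9915 genes. None of their intervals lay wholly above 1, and 4 lay wholly below. Cycling cells had more UMIs, with a median of 7607.5 against 4898.

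In 4 groups of tumour-like cells by rising depth, the sterol sum was 151, 158, 153 and 148 CPM and the fatty acid sum 226, 219, 243 and 231 CPM, while the median depth ran from 2789.5 to 8506 UMIs. Neither sum followed depth. In macrophages of lower and higher depth (538 cells each) the sterol sum was 162 and 126 CPM, and the fatty acid sum 113 and 106 CPM, with overlapping intervals.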

How the data were processed

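The values deposited by the authors were raw counts of UMIs per gene and barcode in 1 matrix of 737280 barcodes and 35733776 UMIs, to which no selection of cells had been applied. Which aligner, genome build and strand setting were used is not given in the sources used here. The 8 columns of the bulk table match no sample label and were not used, so deferiprone was not compared with vehicle. UMIs were summed per class and given as CPM over all UMIs of the class. Intervals are exact Poisson for levels, exact conditional binomial for ratios and Clopper-Pearson for shares, all at 95%. They cover counting error only, and for 0 UMIs a fixed limit of 3 counts was used beside them. The number of UMIs sets the precision: 19994488 in tumour-like cells and 1905866 in macrophages. Free RNA was estimated from 183846 barcodes of 1 to 50 UMIs and from 58272 of 100 to 200 UMIs, with marker sets chosen after the data had been seen. Single genes had few UMIs in the profile of 1 to 50 UMIs: Scd1 and Fads2 had 1 each, Cyp51 had 2 and Acat2 had 5. Their free RNA levels from that profile are therefore uncertain.

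Of the 6442 kept cells, Scrublet (in scanpy 1.11.5) marked 89 (1.38%) as doublets. They were left out of the clustering but not of the classes. The other 6353 cells were clustered on 2000 variable genes, without the 30 genes and the 7 lists (100 genes in all), with 30 principal components, 15 neighbours and the Leiden method (leidenalg 0.10.2) at resolution 1. Other tools were Python 3.11.15, numpy 2.4.6, scipy 1.17.1, pandas 2.3.3, anndata 0.12.19, scikit-learn 1.9.0 and matplotlib 3.10.9. The intervals of levels and ratios and the threshold ratio of 2 were tested on simulated counts, and the other steps were not. Named were all 30 genes, up to 6 genes of each list with at least 50 UMIs by the size of their log2 ratio, and the 3 leading genes of each cluster, apart from 1 list gene that is not reported here. The 30 genes and the lists were chosen with earlier results of these data known. Gene positions are from GENCODE release 21 of the mouse (GRCm38), matched by gene identifier. Alternatives were other cell filters, stricter classes, other totals, subtraction of free RNA, other thresholds and other resolutions.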

Additional observations from a re-analysis of the deposited data

How the results depend on the processing

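Most values kept their direction and their side of the thresholds: of 61 alternative counts and sums, 57 stayed the same by the rules used, and of 338 alternative ratios of single genes, 327 stayed within their interval and 11 moved beyond it. Hmgcs1 (to 0.764, read against the median of all genes), Sc5d (to 1.08 with stricter classes and 1.14 with every cell counting alike) and Acaca (to 1.12 with every cell counting alike) crossed 1 within their intervals. Reading ratios against the median of all genes in place of 1 moved 3 of the counts and sums past the rules. The number of genes lower in tumour-like cells was then 7, in place of 4, the ratio of the sterol sum 0.739, in place of 1.10, which reverses its direction, and that of the fatty acid sum 1.43, in place of 2.13. That shift comes from the construction of this alternative, which divides every ratio by 1.48. At Leiden resolution 2 the highest tumour-like cluster had 1.94 times the fatty acid sum of the lowest, in place of 1.72, and the cause was not tested. Over all alternatives the number of higher genes ranged from 10 to 15 and of lower genes from 3 to 7, the ratio of the sterol sum from 0.739 to 1.17 and that of the fatty acid sum from 1.43 to 2.39. Subtracting free RNA moved some single genes further: with the profiles of 1 to 50 and of 100 to 200 UMIs, Cyp51 had ratios of 44.4 and 105.7, Scd2 of 13.5 and 9.55, Scd1 of 8.399 and 17.8, and Fasn of 13.5 and 14.6. Cyp51 and Scd1 rest on 2 and 3 macrophage UMIs. Of the 1.05 CPM of Cyp51 in macrophages, free RNA would give 0.824 or 0.954. What is left of Cyp51 and Scd1 lies below the 1.57 CPM of the limit used for 0 UMIs, so their subtracted ratios do not measure the size of a difference. Among other single genes, Fdps fell short of a ratio of 2 under 2 of 13 alternatives (lowest 1.52) and Msmo1 under 1 (lowest 1.58), Mvd reached 0.813 under 1, and the lower bound of Elovl6 ranged from 1.20 to 2.73. The 2.73 came with ribosomal and mitochondrial genes left out of the total, where the macrophage limit was not rescaled with the levels. The ratio of Hmgcs1 rose there only from 1.13 to 1.21. The 2.73 therefore does not place Elovl6 past 2, although the 13 higher genes counted there include it. Leaving out cycling cells, or cells of the cluster led by haemoglobin genes, was chosen after seeing the data. Depth limits the macrophage side: 0 to 3 macrophage UMIs lie behind Sqle, Idi1, Lss, Cyp51, Acat2, Hsd17b7, Scd1, Elovl6 and Fads2. No paired analysis was possible because there was 1 library and the bulk columns carry no sample label. The alternatives meant for the bulk libraries (replicate block, another test, no filter on low counts and leaving out each replicate) were not run.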

Other observations

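Clusters made up mostly of cells of neither class carried some of the genes at levels that no comparison above used. All cells of these clusters were counted, which included 8 tumour-like cells in the cluster led by Jchain, 3 tumour-like cells and 10 macrophages in that led by H2-Oa and 1 macrophage in that led by Cox6a2. Each is set against all other clustered cells of neither class, whichever cluster they fell in. Those cells include no tumour-like cell and no macrophage. The genes in this paragraph were chosen after their values were seen. In 188 cells led by the immunoglobulin joining chain gene Jchain and the B cell genes Cd79a and Mzb1, Scd1 stood at 74.3 CPM (39.6 to 127), from 13 UMIs in 12 cells. It stood at 8.44 CPM in the other cells of neither class. The free RNA profile itself held Scd1 at 3.27 CPM (barcodes of 1 to 50 UMIs, from 1 UMI) or 8.17 CPM (100 to 200, from 64 UMIs). The fatty acid sum of these cells was 206 CPM (144 to 285), with Scd2 at 40.0 CPM and Fasn at 22.9 CPM, from 7 and 4 UMIs. Their median depth was 664 UMIs.

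In 415 cells led by H2-Oa, Napsa and H2-Ab1, the last a gene of antigen presentation, Pmvk stood at 53.6 CPM (36.9 to 75.3). It stood at 21.2 CPM in the other cells of neither class, a ratio of 2.53 (1.55 to 4.07). Srebf2 stood there at 34.1 CPM and Insig1 at 24.4 CPM, while the fatty acid sum was 66.6 CPM (47.8 to 90.4) beside a sterol sum of 140 CPM (112 to 173). In 41 cells led by Ccl5, Ccr7 and Cd200, Pmvk had 7 UMIs (126 CPM; 50.5 to 259) and Insig1 had 4 (71.8 CPM; 19.6 to 184), and the 8 fatty acid enzymes together had 1 UMI. In 22 cells led by Cox6a2, Ly6d and Bst2, Insig1 had 3 UMIs.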
